A study of Rattus norvegicus with 6 samples.

Results

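C7 Spon1 Inmt fibroblasts are pancreatic fibroblasts whose transcripts of C7, Spon1 and Inmt outnumber those that mark the other fibroblast kinds of the same rats. They were selected by measured transcripts in single-cell RNA sequencing, in which each transcript molecule is counted once by its unique molecular identifier (UMI). A kept barcode, with at least 200 genes and at most 25% mitochondrial UMIs, was a fibroblast when at least 3 of the 6 genes Col1a1, Col1a2, Col3a1, Dcn, Lum and Pdgfra were detected and the leukocyte gene Ptprc was not. Among fibroblasts the UMIs of Pi16 and Clec3b, of Gfpt2, Tnfrsf11b and Sema3c, and of C7, Spon1 and Inmt were summed, and the cells in which the last sum was at least 2 and strictly the largest were taken. There were 2245 such cells of 12077 fibroblasts (18.6%) and of 75981 kept cells (2.95%), which came from 78024 barcodes. The kinds with the other sums largest, called Pi16 Clec3b fibroblasts and Gfpt2 Tnfrsf11b Sema3c fibroblasts, held 2911 and 4918 cells and are used for comparison.

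The cells came from the pancreas of male Wistar rats in 3 groups of 2. Young rats were 2 months old and were taken at baseline, before the other rats were divided between diets. Old rats had eaten a normal diet for 18 months, and HFHF-old rats had eaten a high-fat high-fructose diet for 18 months. Both older groups were 20 months old. The pancreas was digested with collagenase P and separated on a density gradient as for islets, so the cells are those that such a preparation carries along and not a sample of the whole organ. Values of single rats are given below in the order young 1, young 2, old 1, old 2, HFHF-old 1 and HFHF-old 2.

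Fibroblasts of a tissue are not uniform. Pi16-expressing cells are known as an adventitial kind that lies around larger vessels and ducts, while other kinds lie within the tissue, secrete collagens and basement membrane, and supply neighbouring cells with ligands and binding proteins of the Wnt, BMP and insulin-like growth factor (IGF) pathways. C7 encodes a complement protein of the terminal pathway, Spon1 the secreted matrix protein spondin 1, and Inmt a methyltransferase of small amines. Sfrp1 encodes a secreted Wnt antagonist and Mgp the matrix Gla protein, which binds BMPs and inhibits calcification.

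The 3 genes of the sum were not found equally often. C7 was detected in 94.03% of the 2245 cells, Spon1 in 72.4%, Inmt in 40.1% and all 3 in 29.9%, and C7 was the largest term in 87.6% of the cells. A further 36.9% held C7 and Spon1 without Inmt, 17.5% held C7 alone, and 5.52% held Spon1 alone. Of the 124 cells with Spon1 alone 115 came from old 2, where they were 19.6% of the selected cells. Detection follows depth, and after each cell was thinned to 2000 UMIs Spon1 was detected in 37.1% of the cells of young 1, against 58.7% of the same cells unthinned. Sfrp1 or Mgp, which the rule did not use but which were chosen with earlier results of these data known, was detected in 83.6% of the cells.

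Levels were computed by summing UMIs over the cells of each rat and kind and scaling the sum to 1000000 UMIs (CPM). C7 stood at 3435, 2578, 3826, 3152, 4108 and 3383 CPM in the C7 Spon1 Inmt fibroblasts of the 6 rats, against 207 to 993 in Pi16 Clec3b and 161 to 936 in Gfpt2 Tnfrsf11b Sema3c fibroblasts. Spon1 stood at 404, 794, 809, 581, 902 and 443, against 17.9 to 63.9 and 23.7 to 84.9 in the other kinds. Inmt stood at 207, 681, 374, 456, 133 and 219, against 4.48 to 37.4 and 1.47 to 16.01. These differences follow from the selection and are a description. The other fibroblasts carried C7 too, at a lower level. In leukocytes C7 reached 1.503 to 9.48, Spon1 6.46 to 18.8 and Inmt 0.145 to 3.60 CPM, and a leukocyte held a C7 UMI in 1.12% to 7.65% of cells at a median depth of 3762.5 to 8820.5 UMIs. In young 2 the Spon1 of leukocytes, at 18.8 CPM, lay above that of the kept barcodes, at 14.9. Whether leukocytes carry Spon1 themselves was not tested. Spon1 was also carried by mesothelial cells, at 288 and 410 CPM in the 2 rats with enough of them, and Mgp by mural cells, at 2373 to 3318 in 4 rats.

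**Figure D1:**
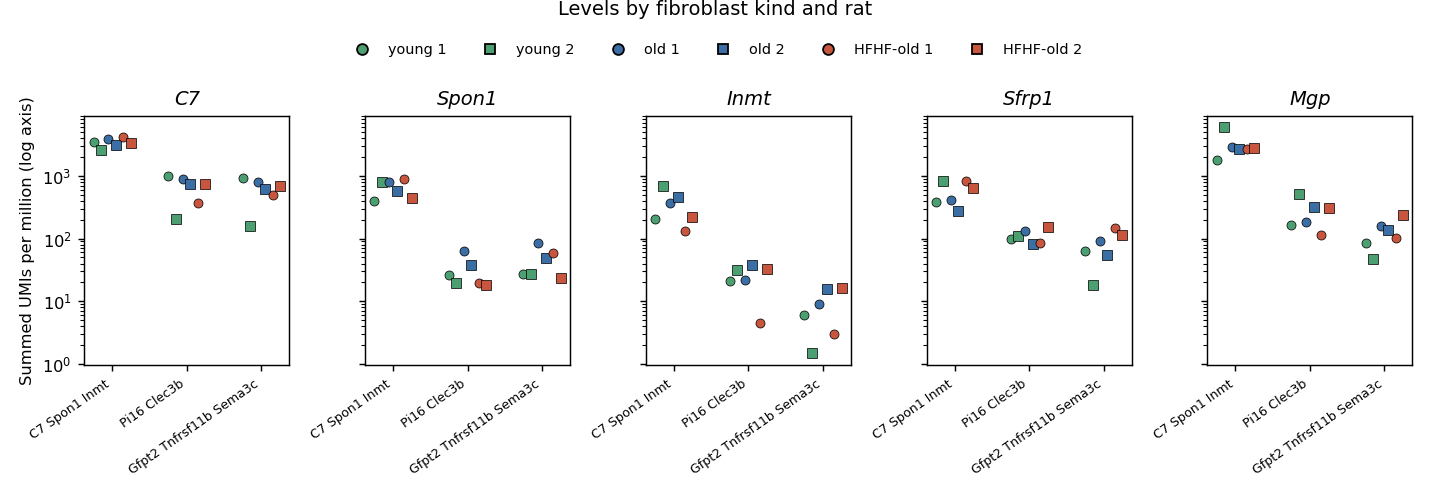
Level in CPM (log axis) of C7, Spon1, Inmt, Sfrp1 and Mgp in the 3 fibroblast kinds, with 1 point per rat, coloured by group and shaped by replicate. C7, Spon1 and Inmt took part in the selection. Sfrp1 and Mgp did not, but they were chosen as markers with earlier results of these data known. Both lie higher in C7 Spon1 Inmt fibroblasts in each of the 6 rats.

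The cut at 2 UMIs separated few cells. The cells with a sum of exactly 2 numbered 20, 3, 4, 93, 6 and 4, and Mgp in them stood at 255, 129, 4463, 779, 186 and 0 CPM. The cells just outside, with a sum of 1 and the other sums at 0, numbered 29, 21, 3, 144, 4 and 0, and Mgp stood at 360, 318, 226, 2392 and 24.5 in the 5 rats that had them. Cells left out because 2 sums tied numbered 51, 5, 9, 17, 5 and 7. Old 2 held most of the cells on either side of the cut.

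Some libraries stood apart. In old 2, 1777 of 16421 kept barcodes, 862 of 2174 fibroblasts and 112 of 587 C7 Spon1 Inmt fibroblasts carried at least 2 UMIs of 4 loci (AC136584.1, AABR07015294.1, LOC691716 and LOC108351703), which no selected cell of the other 5 rats did. Those 112 cells had a median of 700.5 UMIs, against 3321 for the other 475, and stood at 386 CPM for C7, 2565 for Spon1, 0 for Inmt and 19974 for Col1a1, so they entered mainly through Spon1. In young 2, 73.2% of the Pi16 Clec3b cells but 13.3% of the 45 C7 Spon1 Inmt cells had over 10% of their UMIs from acinar and endocrine secretory genes. The summed level of 8 endocrine markers in C7 Spon1 Inmt fibroblasts was 13713, 50511, 38542, 100954, 9633 and 19.9 CPM, and that of 8 acinar markers was 132 to 15120. Cells with at least 2 markers of another type, possible doublets, were 34.2%, 44.4%, 40.0%, 9.88%, 84.3% and 4.55% of the selected cells, and leaving such cells out took HFHF-old 1 from 2564 to 283 fibroblasts and from 343 to 54 selected cells. Median depth ran from 2818 UMIs in old 2 to 10155 in HFHF-old 1, and the cells of a rat summed to 353747 to 4515669 UMIs. Summed over all pairs of libraries 604 kept barcodes were shared, at most 66 in any pair, and 0 barcodes were selected cells in both libraries of a pair. The part of these features in the results was not tested, and values without the marked barcodes or the cells rich in secretory RNA are given where they bear on a result.

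C7 Spon1 Inmt fibroblasts made up a larger share of the fibroblasts in the old rats than in the other groups. They were 596 of 4278 fibroblasts in young 1, which is 13.9% (95% Wilson interval 12.9% to 15.002%), and 45 of 1174 in young 2, which is 3.83% (2.88% to 5.09%). The old rats had 498 of 1126, or 44.2% (41.4% to 47.1%), and 587 of 2174, or 27.0% (25.2% to 28.9%). HFHF-old rats had 343 of 2564, or 13.4% (12.1% to 14.7%), and 176 of 761, or 23.1% (20.3% to 26.3%). Both old rats lay above both young and both HFHF-old rats. The mean was 35.6% ± 12.2 (SD, n = 2) in old, 8.88% ± 7.14 in young and 18.3% ± 6.89 in HFHF-old rats, a log2 ratio of 2.00 between old and young rats and of -0.96 between HFHF-old and old rats. The two-sided exact permutation test gave p = 0.333 for each comparison, the smallest that 2 rats against 2 allow, so neither could pass. The quasi-likelihood test of edgeR on the numbers of cells, adjusted over 4 classes of fibroblasts, gave adjusted p = 0.402 and 0.394. The intervals cover counting error only. A share also moves with the other kinds. Gfpt2 Tnfrsf11b Sema3c fibroblasts were 42.8%, 5.88%, 27.5%, 14.5%, 76.3% and 57.2% of the fibroblasts, higher in both HFHF-old than in both old rats, and Pi16 Clec3b fibroblasts were 27.9%, 58.5%, 24.2%, 23.4%, 4.52% and 17.5%. Fewer cells of this kind, more cells of another and a different yield from the digestion cannot be told apart.

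**Figure D2:**
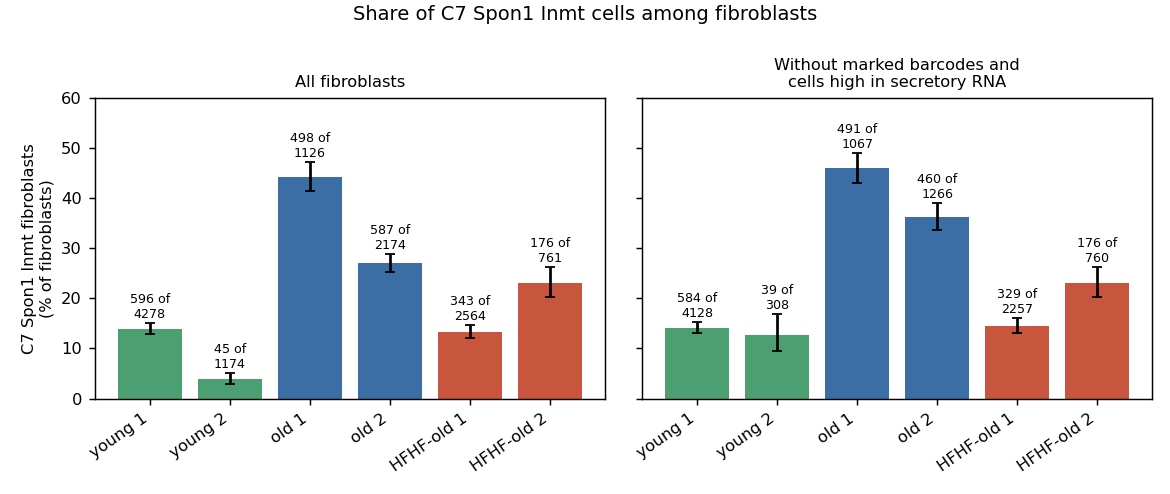
C7 Spon1 Inmt fibroblasts as a percentage of the fibroblasts of each rat, with 95% Wilson intervals as bars and the numbers of cells above them, for all fibroblasts (left) and without marked barcodes and cells high in secretory RNA (right). On both sides the 2 old rats are the highest, at 44.2% and 27.0% on the left and 46.0% and 36.3% on the right.

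The order of the rats depended on which cells were counted. Among cells with 5 of 6 fibroblast genes, HFHF-old 2 (37.0%) lay above old 2 (31.5%), and the exact permutation p for HFHF-old against old was 0.667. With at least 3 UMIs of the rule genes, old 2 (22.7%) and HFHF-old 2 (22.6%) lay side by side. Without the marked barcodes and the cells high in secretory RNA, the shares were 14.1%, 12.7%, 46.0%, 36.3%, 14.6% and 23.2%. The share of young 2 then lay beside that of young 1, its fibroblasts having dropped from 1174 to 308, and that of old 2 was higher than before. As a share of all kept cells they were 3.40%, 0.436%, 6.66%, 3.57%, 2.74% and 1.499%, so that young 1 lay beside old 2.

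The levels of the 3 genes over all fibroblasts of a rat rest on the same cells and on genes of the rule, so they give no support beyond the shares. C7 stood at 1269, 258, 1930, 1440, 804 and 1193 CPM. The old rats were the highest, and the young rats lay furthest apart. Old exceeded young by 1.09 ± 0.65 (SE) on the log2 scale and HFHF-old lay 0.82 ± 0.65 below old, neither of which passed (edgeR adjusted p = 1.0 and 1.0 over the 14092 genes tested, unadjusted p = 0.141 and 0.248). Over the alternatives run, the log2 fold changes of C7 ranged from 0.50 to 2.11 and from -1.01 to -0.61. Spon1 stood at 81.0, 48.7, 344, 241, 132 and 99.8, so both old rats exceeded the other 4, and without the marked barcodes old 2 stood at 194. The log2 fold change of Spon1 was 1.96 ± 0.34 for old against young (adjusted p = 0.613, unadjusted p = 0.000989) and -1.36 ± 0.33 for HFHF-old against old (adjusted p = 1.0, unadjusted p = 0.00575). Inmt stood at 39.9, 48.8, 148, 168, 14.7 and 56.4, also highest in both old rats. Its log2 fold change was 1.51 ± 0.60 (adjusted p = 0.875) and -2.28 ± 0.62 (adjusted p = 1.0). By edgeR 0 of 14092 genes passed in either comparison (0%), against 774 (5.49%) and 489 (3.47%) at an unadjusted p under 0.05. DESeq2 called 112 (0.795%) and 42 (0.298%), Spon1 for old against young among them (adjusted p = 0.000123).

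The expression of C7 Spon1 Inmt fibroblasts differed widely from that of the other kinds in the same rats. Sums of the same rat were compared with the rat as a block by edgeR's quasi-likelihood test. Calls required a change over 1.5-fold and a p below 0.05 after Benjamini-Hochberg adjustment. Against Pi16 Clec3b fibroblasts 1005 genes were higher (8.69%) and 951 lower (8.22%) of 11567 tested, 16.9% in all. Against Gfpt2 Tnfrsf11b Sema3c fibroblasts 841 were higher (7.27%) and 890 lower (7.69%), 15% in all. Genes named below as higher or lower passed against both kinds unless stated. Without the block 1094 and 1028 genes were called. The 15 genes of the rule were left out of these tests, but the cells were sorted on transcripts of the same libraries, so genes that vary together with those 15 within fibroblasts were bound to differ, and the p-values tell only how evenly the 6 rats showed a difference. Both comparisons share the C7 Spon1 Inmt cells and are given side by side. The median log2 fold change of all genes was -0.03 and 0.00.

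Mgp and Sfrp1, the remaining markers of the kind, were higher in each of the 6 rats. Both were chosen as markers with earlier results of these data known, so their values describe the kind and give it no separate support. Mgp stood at 1807, 6041, 2878, 2700, 2683 and 2803 CPM in C7 Spon1 Inmt fibroblasts. It ranged from 114 to 519 in Pi16 Clec3b and from 47.9 to 235 in Gfpt2 Tnfrsf11b Sema3c fibroblasts, with log2 fold changes of 3.32 ± 0.30 (adjusted p = 1.76e-06) and 4.30 ± 0.31 (adjusted p = 2.42e-07). The kinds did not overlap, and young 2 stood out within the kind. In its 45 cells 6 mural markers summed to 1159 CPM, against 11.6 to 197 in the other 5 rats, and mural cells carry Mgp. The part of mural transcripts in the level of young 2 was not tested. Sfrp1 stood at 390, 825, 407, 271, 828 and 637 against 81.2 to 152 and 18.4 to 148, without overlap, with log2 fold changes of 1.98 ± 0.24 and 2.54 ± 0.25 (adjusted p = 2.79e-05 and 2.63e-06).

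Several genes of the basement membrane, the sheet on which epithelia and vessels rest, were higher in this kind. Of 16 tested, 8 were higher and 2 lower against each of the other kinds, with a median log2 fold change of 0.49 and 0.40. Smoc2, which encodes a secreted calcium-binding matrix protein, stood at 163, 212, 190, 144, 156 and 73.7 CPM, against 5.68 to 21.4 and 6.80 to 23.5 (log2 fold change 3.10 ± 0.18 and 3.23 ± 0.18). The lowest rat of this kind lay above the highest of the others. Col4a1, a chain of the network-forming collagen of basement membranes, stood at 1441, 1984, 1045, 758, 899 and 654, against 154 to 358 and 80.3 to 356 (2.05 ± 0.23 and 2.05 ± 0.23). Col4a2, the partner chain, Col15a1 and Nid2, a linker between laminin and collagen networks, were also higher by 1.70, 2.26 and 2.41 against the Pi16 Clec3b kind and 1.64, 2.64 and 2.66 against the Gfpt2 Tnfrsf11b Sema3c kind. Nid1, the paralogue of Nid2, was lower instead (-1.20 and -1.18), in 5 of 6 rats each time, and without the block Nid1 passed against neither kind (adjusted p = 0.0595 and 0.0718). Of 4 endothelial markers tested, Flt1, a receptor gene for vascular endothelial growth factor, was also higher (2.30 and 2.03), and the medians of the 4 were 0.94 and 1.43. The calls on Flt1 were lost without the block (adjusted p = 0.272 and 0.150) and with cells thinned to 2000 UMIs (0.24 and 0.38, adjusted p = 0.765 and 0.655), and that against the Gfpt2 Tnfrsf11b Sema3c kind also without young 1, old 1 or HFHF-old 2 in turn (adjusted p = 0.0827 to 0.0945). Young 2, where Col4a1 was highest, had the highest sums of endothelial markers (492 CPM, against 20.3 to 127 in the other 5 rats) and of mural markers. The part of such transcripts in the basement membrane values was not tested.

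Interstitial collagens went both ways. Of 10 tested beyond those of the rule, 4 were higher and 3 lower against either kind. The call on Col14a1, 1 of the 3 lower, was lost against both kinds without the block (adjusted p = 0.112 and 0.0963). It was also lost without old 1, old 2, HFHF-old 1 or HFHF-old 2 in turn. Col6a1 and Col6a2, chains of the beaded-filament collagen, were higher by 1.95 and 1.28 on the log2 scale against Pi16 Clec3b fibroblasts and by 1.83 and 1.49 against the Gfpt2 Tnfrsf11b Sema3c kind. Col12a1, a collagen bound to fibril surfaces, was lower (-1.67 and -1.83). Of 26 genes of elastic fibres and matricellular proteins, 6 were higher and 8 lower against each kind, the median being -0.08 and 0.04. Fbn1, the main microfibril protein, stood at 3721, 1764, 1001, 1137, 3468 and 1464 CPM, against 2368 to 6968 and 2331 to 7840. The ranges overlapped, but in each of the 6 rats this kind was the lowest (log2 fold change -1.38 ± 0.16 and -1.56 ± 0.16). The microfibril-associated Mfap5 (-1.91 and -1.58), the antiangiogenic matricellular gene Thbs2 (-1.92 and -2.14) and the matricellular gene Nov (-2.97 and -2.88) were lower as well, while Fbln1 (1.81 and 1.99), Emilin1 (2.40 and 1.95) and Spon2 (1.58 and 2.07) were higher.

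Ligands and antagonists of the Wnt and BMP pathways changed in both directions. Of 25 Wnt pathway genes tested, 11 were higher and 3 lower against Pi16 Clec3b fibroblasts, and 8 higher and 4 lower against the Gfpt2 Tnfrsf11b Sema3c kind, with medians of 0.53 and 0.52. Rspo3, a secreted ligand that amplifies Wnt signals, stood at 141, 192, 224, 174, 209 and 104 CPM, against 5.12 to 39.8 and 5.57 to 25.3, so the kinds did not overlap (log2 fold change 3.00 ± 0.33 and 3.08 ± 0.33). The Wnt antagonist Sfrp2 (1.92 and 2.70), the feedback inhibitor Nkd1 (2.504 and 2.29) and the ligand Wnt5b (1.29 and 1.86) were higher too. Sfrp4, a Wnt antagonist like Sfrp1 and Sfrp2, was lower (-1.89 and -1.77) in all 6 rats.

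Of 30 genes of the TGF-beta and BMP pathways, 10 were higher and 5 lower against Pi16 Clec3b fibroblasts, and 10 higher and 6 lower against the Gfpt2 Tnfrsf11b Sema3c kind (medians 0.48 and 0.36). Gdf10, a ligand of the TGF-beta family, stood at 100.1, 56.5, 71.0, 64.2, 59.99 and 81.3 CPM, against 3.20 to 11.5 and 1.73 to 4.17 (log2 fold change 2.97 ± 0.19 and 4.50 ± 0.21). Each of the 6 rats lay far above the other kinds. Bmper, a BMP-binding regulator (2.26 and 2.07), and Id3, a transcriptional target of BMP signalling (1.87 and 1.81), were higher. The ligand Bmp7, which is not in the list, was lower (-4.17 and -4.00), at 4.76 ± 6.68 (SD, n = 6) against 64.6 ± 21.6 and 58.4 ± 20.7 CPM.

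Binding proteins of the IGF axis differed in opposite directions. Of 9 genes tested 4 were higher and 2 lower against Pi16 Clec3b fibroblasts, and 4 higher and 3 lower against the Gfpt2 Tnfrsf11b Sema3c kind. Igf1, the growth factor itself, stood at 1218, 950, 1756, 1336, 1913 and 1448 CPM, against 196 to 551 and 106 to 348 (log2 fold change 1.77 ± 0.16 and 2.16 ± 0.16). Igfbp3, which carries IGF in the circulation, stood at 1344, 1702, 2631, 1209, 971 and 832, against 5.76 to 81.3 and 8.10 to 67.2 (4.55 ± 0.36 and 5.41 ± 0.38). Igfbp5, which is abundant in matrix, went the other way, at 826, 254, 409, 297, 263 and 606 against 1588 to 5026 and 1010 to 4207 (-3.29 ± 0.21 and -3.08 ± 0.21). None of these 3 genes overlapped between the kinds. Pappa1, a gene outside the list that is named for a protease of IGF-binding proteins, was higher by 4.03 and 4.55.

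Enzymes that act on small molecules, the group to which Inmt belongs, were higher more often than lower. Of 20 tested, 7 were higher and 4 lower against Pi16 Clec3b fibroblasts, and 9 higher and 2 lower against the other kind (medians 0.28 and 0.50). Fmo2, a flavin-containing monooxygenase, stood at 166, 204, 305, 145, 128 and 153 CPM, against 1.62 to 18.6 and 0 to 8.60 (log2 fold change 4.23 ± 0.43 and 5.002 ± 0.43). Its relative Fmo1 was higher by 2.75 and 3.64. Cyp7b1, an oxysterol hydroxylase, stood at 145, 331, 157, 168, 199 and 205, against 12.2 to 22.2 and 7.67 to 20.2 (3.24 ± 0.21 and 3.56 ± 0.21). Each rat kept these genes above the other kinds. Hsd11b1, which regenerates active glucocorticoid, was higher by 1.27 and 1.74, and in HFHF-old 2 it was not above the Pi16 Clec3b kind.

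Several secreted immune genes were higher in this kind. Of 17 chemokines and cytokines, 7 were higher and 2 lower against Pi16 Clec3b fibroblasts, and 8 were higher and 3 lower against the other kind (medians 0.72 and 0.69). Cxcl14, a chemokine of resting tissue, stood at 161, 449, 466, 273, 112 and 137 CPM, against 0 to 21.3 and 0.439 to 4.11 (log2 fold change 5.01 ± 0.47 and 6.81 ± 0.52). Ccl11, the eosinophil attractant eotaxin, stood at 13.5, 28.3, 512, 52.9, 53.2 and 19.9. Old 1 was far above the rest. Ccl11 was higher in 5 of 6 rats and passed against both kinds (2.51 ± 0.83 and 2.82 ± 0.84, adjusted p = 0.0327 and 0.0239), but not without old 1 (adjusted p = 0.138 and 0.126) and not without HFHF-old 1 (0.110 and 0.103). It also did not pass without the block (0.0627 and 0.0933). The cytokines Il33 (-2.06 and -1.98) and Il34 (-2.60 and -2.60) were lower in each rat. Of 15 complement genes besides C7, C6, the neighbour of C7 in the terminal pathway, stood at 227, 136, 341, 421, 94.9 and 427, against 2.19 to 86.7 and 3.68 to 81.8, without overlap (3.17 ± 0.30 and 3.14 ± 0.30). Cd55, which protects cells from complement, was lower (-3.39 and -3.68), the single complement gene that was lower. Of the 15, 2 were higher against Pi16 Clec3b fibroblasts and 4 against the other kind. Over all genes 8.69% and 7.27% were higher and 8.22% and 7.69% lower.

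Of 24 genes of the interferon response and antigen presentation, 11 were lower against Pi16 Clec3b fibroblasts (median -0.49) and 3 against the other kind (median -0.18). All 8 acinar markers tested were also lower against Pi16 Clec3b fibroblasts, with a median of -1.93, and against the other kind edgeR called 0 of 8, with a median of -1.48 and 6 of 8 at an unadjusted p under 0.05, as were 3978 of all 11567 genes. Of 6 macrophage markers 1 was called lower against Pi16 Clec3b fibroblasts, 0 had a positive log2 fold change, and the median was -0.86. An unadjusted p under 0.05 was found there for 3 of the 6, beside 4868 of all 11567 genes. Against the other kind 0 were called, all 6 were positive, and the median was 0.53. The part of such transcripts in these differences was not tested. Among 16 genes of lipid handling 5 and 7 were higher and 0 and 1 lower, with the lipoprotein lipase gene Lpl (1.86 and 1.82), the transporter gene Abca8a (2.11 and 2.36) and the adipogenic regulator Pparg (1.21 and 1.73) higher in all 6 rats. Of 22 oxidative stress genes 0 were called against Pi16 Clec3b fibroblasts by edgeR, 14 of them having an unadjusted p under 0.05, as had 4868 of all 11567 genes, and 1, Gpx3, was higher against the other kind. Their medians were -0.23 and -0.02, and those of the 9 ribosomal genes were -0.26 and 0.07.

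Transcription factors set the kinds apart too. Of 34 tested, 10 and 11 were higher and 4 and 6 lower. Heyl, a target of Notch signalling, stood at 79.5, 229, 124, 83.0, 63.8 and 68.3 CPM, against 0.812 to 9.68 and 0 to 3.02 (log2 fold change 4.18 ± 0.29 and 5.46 ± 0.31). The homeobox gene Meox2 (3.53 and 3.03), the nuclear receptor gene Nr2f2 (1.19 and 1.41) and the forkhead gene Foxf1 (1.17 and 1.05) were higher in all 6 rats. Osr2, a zinc finger gene, was lower (-1.60 and -1.71). Heyl and Meox2 were both highest in young 2, as Mgp and the mural markers were. Heyl stood there at 229 CPM against 63.8 to 124 in the other 5 rats, and Meox2 at 172 against 14.8 to 35.3. The part of mural transcripts in these levels was not tested.

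The genes of the adventitial kind were low. The selection set Pi16, Clec3b, Gfpt2, Tnfrsf11b and Sema3c below the sum of this kind. Genes that vary together with these within fibroblasts were therefore bound to differ, and the lists were chosen with earlier results of these data known. All 7 tested genes of that list were lower against both kinds, among them Dpp4, a surface peptidase that marks such cells, at 60.5, 5.65, 30.8, 11.4, 31.1 and 14.6 CPM against 152 to 287 and 163 to 306 (-3.64 ± 0.32 and -3.69 ± 0.32), and Anxa3 (-4.08 and -4.23). Of 5 further genes listed for the Gfpt2 Tnfrsf11b Sema3c kind, 2 and 4 were lower, among them the hyaluronan synthase gene Has2 (-1.16 in 5 of 6 rats and -1.85 in 6 of 6). Of 7 genes listed for pancreatic stellate cells, the vitamin A storing cells of the gland, 2 were higher against each kind: Hgf, which encodes hepatocyte growth factor (0.98 and 1.37), and Des, a muscle-type intermediate filament gene (1.81 and 1.35). Without the block Des did not pass (adjusted p = 0.106 and 0.313), and with cells thinned to 2000 UMIs Hgf did not pass against Pi16 Clec3b fibroblasts (adjusted p = 0.0638). The summed levels of markers of other cells in this kind were 20.3 to 492 CPM for 5 endothelial markers, 24.6 to 89.5 for 5 Schwann, 113 to 211 for 6 mesothelial, 16.1 to 539 for 6 macrophage and 6.42 to 12.3 for 7 lymphocyte markers, 0 to 12.62 for 5 adipocyte, 1.14 to 9.39 for 3 erythroid and 6.14 to 250 for 6 ductal markers.

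Other lists changed less evenly. Of 19 immediate early genes 6 were higher and 2 lower against Pi16 Clec3b fibroblasts, and 2 higher and 4 lower against the other kind. Of 11 genes of growth arrest and senescence 3 were higher against each kind, among them the cell cycle inhibitor gene Cdkn2b (2.21 and 2.40), and 1 was lower against the Gfpt2 Tnfrsf11b Sema3c kind. Of 14 metalloproteinases and inhibitors 3 and 1 were higher and 2 and 1 lower, and of 7 small proteoglycans 1 and 2 were higher and 2 and 3 lower. The shares over all genes were 8.69% and 7.27% higher and 8.22% and 7.69% lower. Upk1b, a mesothelial marker, was higher than in Pi16 Clec3b fibroblasts (3.07) and lower than in the other kind (-2.63). The first of these calls on Upk1b was lost without the block and without young 1, young 2, old 2 or HFHF-old 1 in turn (adjusted p = 0.0528 to 0.0729).

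**Figure D3:**
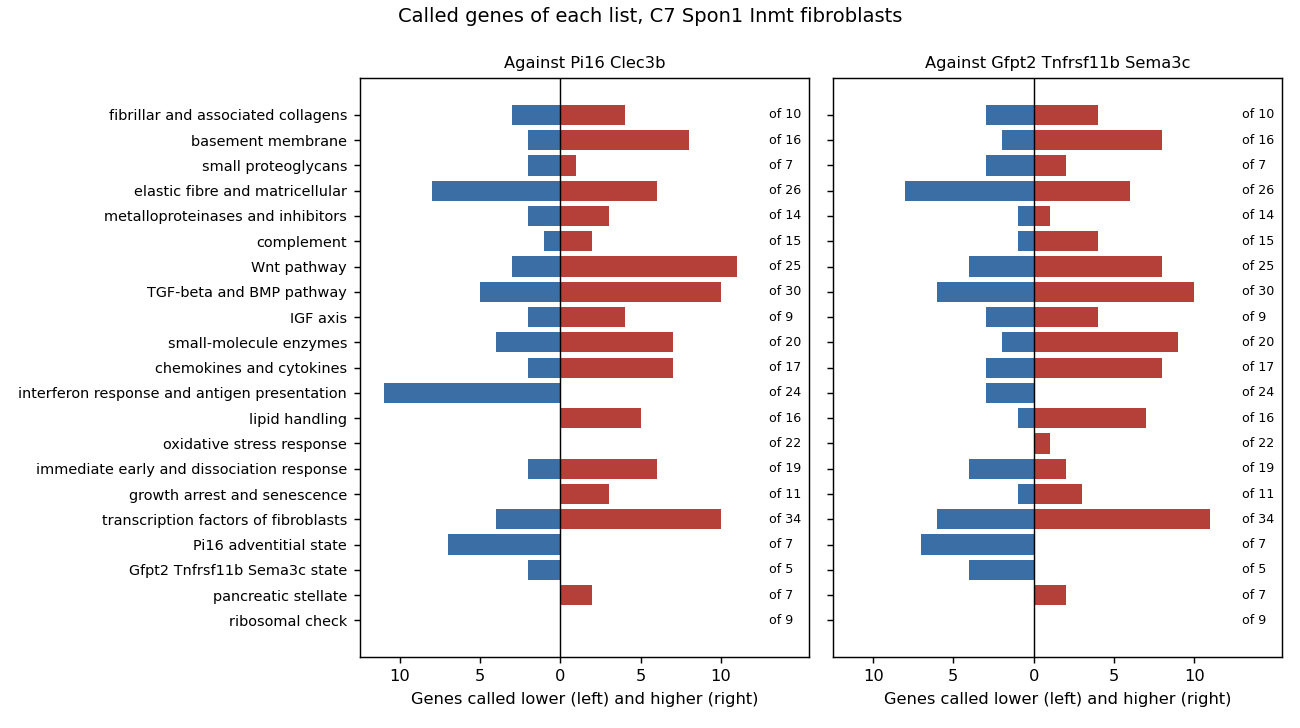
Number of genes called higher (right of 0) and lower (left of 0) in C7 Spon1 Inmt fibroblasts for 21 gene lists, against Pi16 Clec3b (left) and Gfpt2 Tnfrsf11b Sema3c fibroblasts (right), with the number tested beside each bar. Basement membrane stands at 8 higher and 2 lower in both panels, and the adventitial list at 7 lower of 7.

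Outside the lists, the largest rises among called genes without overlap within rats included genes of channels, receptors and secreted factors. The acid-sensing channel gene Asic2 (5.67 and 4.83), the glutamate receptor gene Gria4 (5.12 and 4.82) and Adcyap1r1, the receptor gene for the neuropeptide PACAP (4.64 and 4.54), were higher, as were the secreted factor genes Ptn (4.52 and 3.78) and Chi3l1 (4.49 and 5.15) and the matrix-associated gene Adamtsl2 (4.67 and 4.74). Among Schwann cell markers, 2 were tested and S100b was higher (1.75 and 2.73). The other had no positive log2 fold change in either comparison, and the medians of the 2 were 0.71 and 1.25. The call on S100b was lost against Pi16 Clec3b fibroblasts without the block (adjusted p = 0.0590). The largest falls included Hs3st5, a heparan sulphate sulphotransferase gene, at 1.87 ± 1.69 CPM (SD, n = 6) against 40.4 ± 15.9 and 61.1 ± 25.1 (-4.46 ± 0.35 and -5.03 ± 0.35), the growth cone gene Gap43 (-4.27 and -4.36), the aldo-keto reductase gene Akr1c3 (-3.69 and -3.69) and the arginase gene Arg1 (-3.20 and -3.27).

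**Figure D4:**
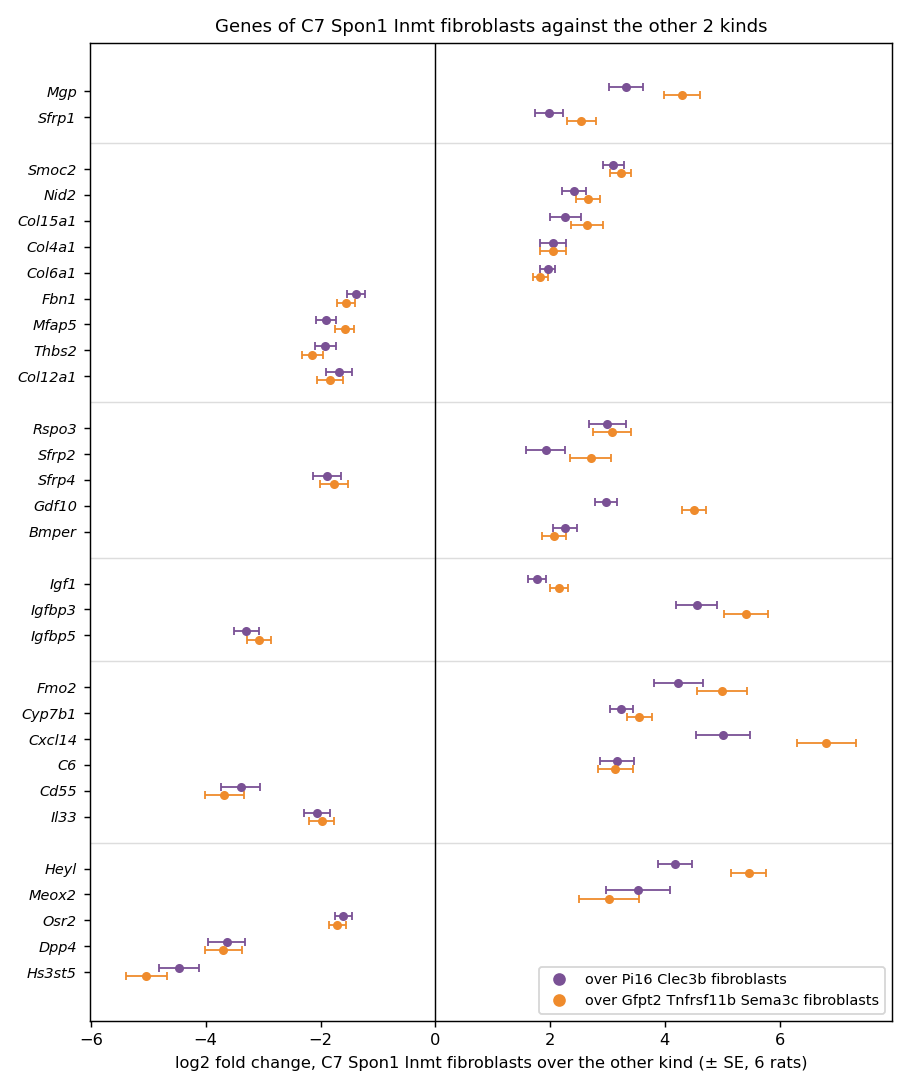
Log2 fold change (± SE, 6 rats) of C7 Spon1 Inmt fibroblasts over Pi16 Clec3b (purple) and over Gfpt2 Tnfrsf11b Sema3c fibroblasts (orange) for named genes grouped by role. Igfbp3 lies at 4.55 and 5.41 and Igfbp5 at -3.29 and -3.08, and each plotted gene lies on the same side of 0 in both comparisons.

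The groups of rats were compared within C7 Spon1 Inmt fibroblasts, with 2 rats in each. For old against young 0 of 11682 genes were called (0%), with 638 (5.46%) at an unadjusted p under 0.05, and DESeq2 called 39 (0.334%). For HFHF-old against old 0 were called (0%), with 596 (5.1%) at an unadjusted p under 0.05, and DESeq2 called 20 (0.171%). Without old 1 the edgeR test called 6 and 12 genes, and without HFHF-old 1 it called 4 for HFHF-old against old. These fits leave 1 rat in a group, old 2 with its marked barcodes or HFHF-old 2, which is assumed to vary like the other groups. In data simulated on these sums, 100 of 11309 genes were changed by each size, all drawn from genes with a mean above 20 CPM. The test found 61% of changes of 2 on the log2 scale and 1% of changes of 1, so that most changes of the smaller size would be missed. Genes at lower levels, as several of those below, were not changed in the simulation. Genes with the smallest p of each comparison are given as values. Both comparisons share the old rats.

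Genes of the immediate early response are known to be induced quickly by growth factors and by tissue digestion. Nr4a1 stood at 217, 187, 895, 891, 291 and 326 CPM. Both old rats were well above the other 4, with log2 fold changes of 2.26 ± 0.29 for old over young (adjusted p = 0.172) and -1.72 ± 0.28 for HFHF-old over old (adjusted p = 0.409). In the other kinds Nr4a1 was also higher in both old than in both young rats, at 139, 69.8, 424, 451, 106 and 463 in Pi16 Clec3b and 214, 97.2, 508, 551, 378 and 577 in Gfpt2 Tnfrsf11b Sema3c fibroblasts, with HFHF-old 2 the highest in both. Egr2 stood at 27.0, 19.8, 132, 93.4, 54.5 and 45.3, with the 3 groups in separate ranges, while in Gfpt2 Tnfrsf11b Sema3c fibroblasts HFHF-old 1 was the highest, at 56.6. Of 19 genes of that list, 17 had a positive log2 fold change for old against young, beside 6150 of all 11682 genes. An unadjusted p under 0.05 by edgeR was found for 11 of the 19, beside 5.46% of all genes. The median was 1.04 beside 0.03 over all genes. For HFHF-old against old 8 of the 19 were positive, beside 6014 of all 11682 genes, and the median was -0.11 beside 0.01. Of the 19, 7 had an unadjusted p under 0.05, beside 5.1% of all genes.

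Nabp1, which encodes a single-stranded DNA binding protein, stood at 12.4, 11.3, 118, 101, 93.6 and 49.1 CPM (3.30 ± 0.43 for old against young, adjusted p = 0.172). All 4 older rats were above both young rats. In Pi16 Clec3b and Gfpt2 Tnfrsf11b Sema3c fibroblasts the same gene lay between 4.42 and 11.7 in all 6 rats. Cpne5, a calcium-dependent membrane binding gene, stood at 0.664, 0, 13.01, 12.8, 0.753 and 1.53 CPM. Both old rats exceeded the other 4, and in the other kinds it reached at most 1.42 (adjusted p = 0.205 against young and 0.288 against HFHF-old rats).

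A pair of RT1 genes, which belong to the major histocompatibility complex, were high in the old rats in every kind of fibroblast. RT1-A1, a class I gene, stood at 64.7, 36.7, 466, 240, 61.2 and 102 in C7 Spon1 Inmt fibroblasts (2.84 ± 0.41 for old against young, adjusted p = 0.189). In Pi16 Clec3b fibroblasts it stood at 103, 144, 609, 525, 79.4 and 145, with the old rats again above the others. RT1-Bb, a class II gene, stood at 0.664, 0, 51.1, 20.3, 0.753 and 0 and was at 71.0 and 43.8 in the Pi16 Clec3b fibroblasts of the old rats. Class I and class II genes of this locus have near-identical copies, between which the counting may divide reads, so these values are uncertain. The labels give neither litter nor haplotype of the rats, and inherited differences at this locus cannot be told apart from the group. Of the 23 genes of the interferon and antigen presentation list tested, the median was 0.00 between old and young and -0.39 between HFHF-old and old rats.

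For HFHF-old against old, Baiap2, an actin scaffold gene, stood at 24.9 and 16.3 CPM in old and 67.5 and 128 in HFHF-old rats (2.04 ± 0.34, adjusted p = 0.409), and Nfatc2, a transcription factor gene, at 1.60 and 1.98 against 14.6 and 23.8 (3.22 ± 0.49, adjusted p = 0.227). In both genes the HFHF-old rats lay above the other 4, and Baiap2 did so in the other kinds as well. For Nfatc2 the same order was found in Gfpt2 Tnfrsf11b Sema3c fibroblasts, at 5.87 and 4.17 against at most 2.74, and not in Pi16 Clec3b fibroblasts, where young 2 was highest at 4.75. Cftr, a chloride channel gene of duct cells, stood at 14.2 and 9.88 in old and was listed at 0 in both HFHF-old rats. The ductal markers had a median log2 fold change of -2.47 in this comparison, with 4 of 5 at an unadjusted p under 0.05, beside 5.1% of all genes.

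**Figure D5:**
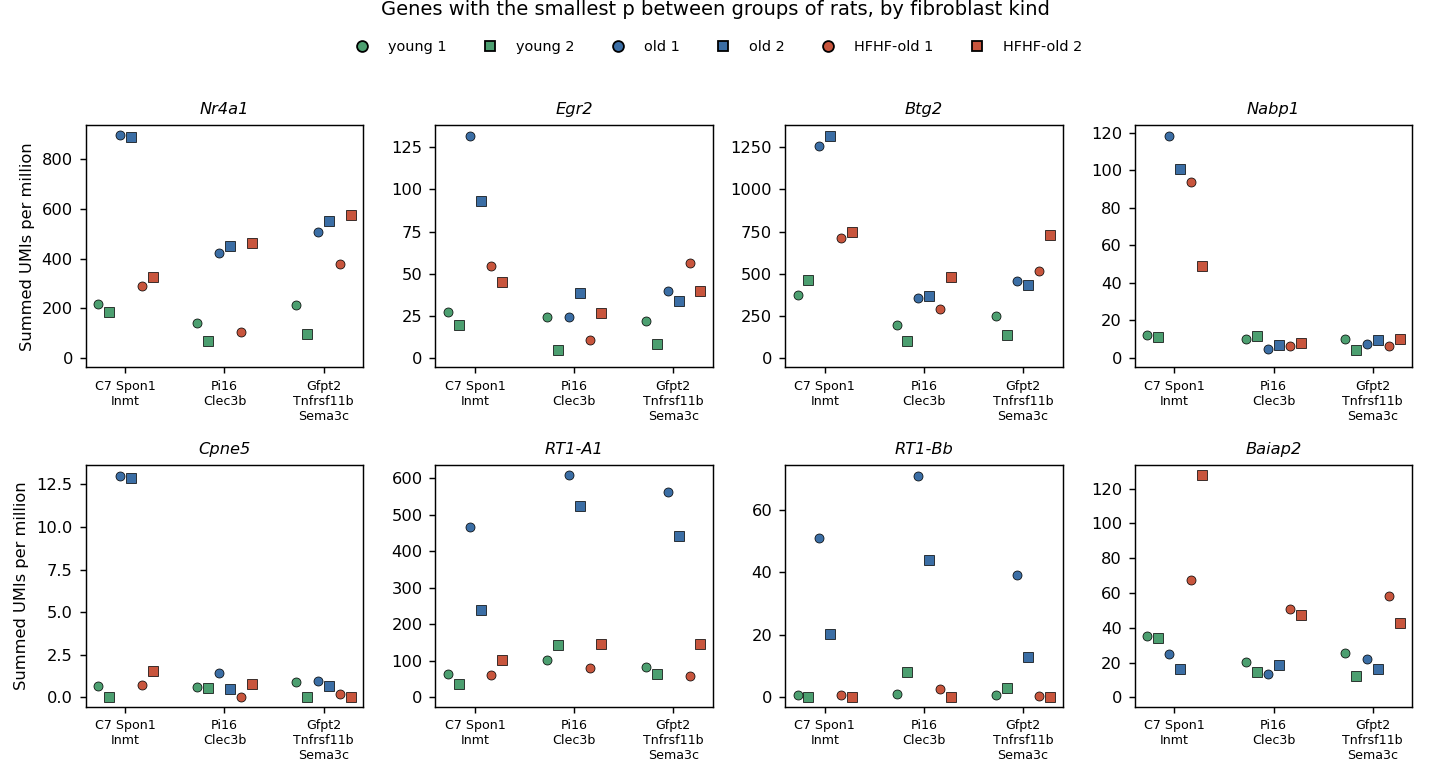
Level in CPM (linear axis) of 8 genes in the 3 fibroblast kinds, with 1 point per rat coloured by group. The genes were chosen from those with the smallest p between groups of rats or between the effects in the kinds. Btg2 was picked after its values were seen. Nabp1 is above 49 in all 4 older rats in C7 Spon1 Inmt fibroblasts alone, while RT1-A1 and RT1-Bb are highest in the old rats in each kind.

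The fibrillar collagen genes Col1a1 and Col3a1 stood lower in the old than in the young rats, given here as values. Both took part in the selection. Col1a1 stood at 4452, 3418, 782, 1320, 2079 and 454 CPM, and Col3a1 at 12935, 11084, 2699, 1844, 7159 and 1520. Both young rats lay above both old rats, and the HFHF-old rats lay far apart. Without the marked barcodes Col1a1 in old 2 was 341 and Col3a1 1219, below HFHF-old 2 in both. In the Pi16 Clec3b kind both young rats also lay above both old rats, and Col3a1 stood at 11396, 5356, 3097, 2024, 3441 and 941. Among 10 further interstitial collagens the median log2 fold change was -0.76 between old and young and 0.40 between HFHF-old and old rats. Of the 10, 4 had an unadjusted p under 0.05 each time, beside 5.46% and 5.1% of all genes. Among 17 basement membrane genes it was -0.34 and -0.01. Col14a1, a collagen on fibril surfaces, stood at 791, 718, 311, 191, 481 and 609, the young rats highest and the old lowest (-1.49 and 0.95, unadjusted p = 0.00134 and 0.0145).

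Neither Mgp nor Sfrp1 passed between the groups. The log2 fold change of Mgp was -0.39 ± 0.58 for old against young (adjusted p = 0.995), and without young 2 the sign turned (0.76), and it was -0.20 ± 0.58 for HFHF-old against old. That of Sfrp1 was -0.74 ± 0.43 and 0.96 ± 0.43 (adjusted p = 0.995 and 0.900). The other lists of fibroblast genes gave medians between -0.60 for the adventitial list and 0.50 for growth arrest and senescence in old against young rats, and between -0.39 and 0.57 in HFHF-old against old rats. The lists of markers of other cells gave medians from -2.95 for 5 endothelial to 2.41 for 5 ductal markers in old against young rats, with 8 acinar at -0.10 and 6 macrophage markers at 0.34. In HFHF-old against old rats they ran from -4.02 for 8 endocrine to 1.35 for 8 acinar markers, with 5 endothelial markers at -0.02. Their part in the group differences was not tested.

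Whether an effect differed in C7 Spon1 Inmt fibroblasts from the mean effect in the other kinds was tested as an interaction. Of 13041 genes 0 passed for old against young by edgeR (0%), with 932 (7.15%) at an unadjusted p under 0.05 and 38 (0.291%) called by DESeq2. For HFHF-old against old 0 passed (0%), with 612 (4.69%) and 4 (0.0307%). Nabp1 had the smallest p for old against young, with a difference of 3.87 ± 0.49 and an adjusted p of 0.0602. Next came Ecm1 (-1.48 ± 0.21), an extracellular matrix protein gene, Sgcd (-1.89 ± 0.28), Cd55 (-2.26 ± 0.34) and the plasminogen activator gene Plat (-1.25 ± 0.19), each with an adjusted p of 0.0617. Cd55 stood at 161 and 48.1 CPM in the young and 37.4 and 24.7 in the old rats in this kind, against 616, 136, 636 and 685 in Pi16 Clec3b fibroblasts. Young 2 was low there, where 73.2% of its cells were rich in secretory RNA, and the part of this was not tested. Without the marked barcodes and the cells high in secretory RNA 56 genes passed, and without young 1, which leaves young 2 as the only young rat, 115 did. For HFHF-old against old, genes with a small p included Gclc, an enzyme gene of glutathione synthesis, with a difference of effects of -1.59 ± 0.25 (adjusted p = 0.276), and Btg2 (-1.27 ± 0.25, adjusted p = 0.541). Gclc stood at 62.3 and 46.5 CPM in old and 29.6 and 62.9 in HFHF-old rats in this kind, where the groups overlapped, and at 33.0 and 37.7 against 68.3 and 106.6 in Gfpt2 Tnfrsf11b Sema3c and 35.9 and 32.9 against 34.6 and 107 in Pi16 Clec3b fibroblasts.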

How the data were processed

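Single-cell RNA libraries of the pancreas of 6 rats were made with a 10x Genomics 3' kit. The authors ran Cell Ranger and deposited filtered matrices of whole UMI counts, by gene and by barcode. The file headers name version 5.0.0, the study's methods name a later version, and the submitters' processing notes name the genome build Rnor_6.0. The strand setting is not given in the sources used here, and the files hold 32883 genes without coordinates.

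Cells were selected and summed per rat and kind as described above. The selected cells and the gene lists were chosen with earlier results of these data known. Of 496 listed genes 483 matched the files' symbols, directly or through RefSeq synonyms. Cfb, Apoc1 and Hba-a2, whose symbols belong to several gene IDs in the files, were tested by ID and left out of the counts by list. Doublets were not removed in the main analysis. Leaving out cells with at least 2 markers of another type was an alternative.

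Sums of at least 10 cells entered quasi-likelihood tests of edgeR 4.0.16 under R 4.3.3, with TMM scaling and low counts removed by filterByExpr, in 1 fit of 6 rats for groups and of 18 sums with the rat as a block for kinds, with Benjamini-Hochberg adjustment over all genes tested. TMM factors ran from 0.883 to 1.13 in the fit of groups over the selected cells. In the fit of kinds they ran from 0.535 in the Gfpt2 Tnfrsf11b Sema3c fibroblasts of young 2 to 1.30 in the selected cells of HFHF-old 2. A standard error is the size of a log2 fold change over the square root of its F. DESeq2 1.42.0 was an alternative. CPM levels use all UMIs of a sum and no TMM factor. Genes named were taken from the listed genes called. Of the other called genes they were taken from the 10 largest rises and 10 largest falls without overlap within rats at a mean of at least 20 CPM. Where fewer than 10 were called, they were also taken from the 10 with the smallest p. Not every gene that met these rules is named. Of the genes named as values, Btg2 and Col14a1 in the comparisons of groups were picked after their values were seen. Tests were checked on simulated counts. In these 93.9% of changes of 1 on the log2 scale were found between kinds. They were made in 99 of 11328 genes, drawn from those with a mean above 20 CPM. The labels number the rats but do not say that numbers share a litter or day. Alternatives were DESeq2, RLE size factors, no filter on low counts, an older quasi-likelihood fit, other cell filters, thinning to 2000 UMIs, blocks by replicate number and leaving out each rat. With nothing said of separate litters, p-values between groups measure the spread between these rats. Those of fits with the rat as a block measure the spread of the differences between kinds over these rats. Some items that were withheld are not reported here.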

Additional observations from a re-analysis of the deposited data

How the results depend on the processing

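Directions of the share of cells and of C7, Spon1 and Inmt over all fibroblasts held under each alternative run. The log2 ratio of the share ran from 1.35 to 3.22 for old against young and from -1.41 to -0.56 for HFHF-old against old when 1 rat at a time was left out. DESeq2 called Spon1 for old against young (1.95). DESeq2 called 39 and 20 genes in the comparisons of groups and 38 and 4 for the effect in this kind less that in the others. Leaving out 1 rat gave 0 to 6 genes for old against young, 0 to 12 for HFHF-old against old, and 0 to 115 and 0 to 2 for the differences of effects. For the latter in old against young, 1 gene passed with RLE size factors, 6 without the top 1% of barcodes by genes, 16 without possible doublets, 42 without high secretory RNA, 60 after thinning to 2000 UMIs and, in settings chosen after seeing the data, 7 without marked barcodes and 56 without these and high secretory RNA. In HFHF-old against old, the counts were 2 with 5 of 6 fibroblast genes, 7 without possible doublets, 10 without high secretory RNA, 10 after thinning and 16 without both sets. Against Pi16 Clec3b fibroblasts thinning left 1270 genes. Between kinds leaving out 1 rat gave 1679 to 1969 and 1355 to 1834 genes. The change of Mgp for old against young ran from -1.04 without young 1 to 0.76 without young 2. Of the fits of named single genes 3397 kept direction and side of the threshold, 34 lost the call, 70 gained it and 1 reversed. All 34 lost calls were between kinds. In the comparisons of groups and of effects 0 genes were called in the main fit, so no call could be lost there. Flt1 had no value without possible doublets.

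The rat block within kinds follows the animal. Without this rat block 1094 and 1028 genes were called between kinds, and 1 for the difference of effects in old against young. Between groups the deviations of same-numbered rats in the selected cells correlated at 0.06, -0.13 and -0.02. With 2 rats a group these values cannot tell whether same-numbered rats share a litter or day, and the numbers were not used as pairs. With a block by replicate number 0 genes were called in either comparison, and the log2 ratio of the share was 2.24 and -0.97. With 2 rats a group, many changes of 2 on the log2 scale were missed in simulated data, 45 cells in young 2 limit its values, and the age, feeding and library of a group cannot be told apart from one another where they coincide.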

Other observations

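Some loci without a gene name differed between the rats. AC127784.2 was listed at 0 in the C7 Spon1 Inmt fibroblasts of both young rats and stood at 20.8, 19.8, 14.8 and 12.3 CPM in old 1, old 2, HFHF-old 1 and HFHF-old 2, and in Gfpt2 Tnfrsf11b Sema3c fibroblasts it stood at 0.0635, 0, 25.8, 21.2, 19.7 and 14.7. In C7 Spon1 Inmt fibroblasts AABR07018038.2 was lowest in both old rats, at 1.14 and 0.988 against 11.5 to 15.8 in the other 4, and AABR07060872.1 stood at 291 and 1936 in the old rats against 5.65 to 29.0. AC111804.2 was highest in the old rats in every kind, at 49.8 and 55.3 against 5.09 to 13.8 in the other 4 rats in C7 Spon1 Inmt fibroblasts, 5.68 and 10.5 against 1.28 to 4.91 in Pi16 Clec3b and 14.9 and 10.965 against 0 to 8.58 in Gfpt2 Tnfrsf11b Sema3c fibroblasts.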
